A study of Mus musculus with 15 samples.

Results

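MicroRNAs (miRNAs) miR-221 and miR-222 are cut from neighbouring hairpins, and each hairpin can release a 5p and a 3p arm. All 4 mature arms, mmu-miR-221-3p, mmu-miR-221-5p, mmu-miR-222-3p and mmu-miR-222-5p, were taken by name from a table of 1205 miRNA rows. They were selected on their measured CLP against sham fold changes in these same libraries. Their levels and ratios are therefore described without a test. All 4 passed the abundance filter that kept 426 rows.

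The libraries were small RNA libraries of platelet-free plasma from male, wild-type C57BL/6J mice, sampled 24 h after surgery. Of the 15 libraries, 9 came from mice with CLP (cecal ligation and puncture), an operation that lets gut bacteria into the abdomen and models polymicrobial sepsis, and 6 came from sham-operated mice. No other treatment or allele is labelled, and whether the numbered libraries come from separate animals is not labelled, so spreads and p-values describe these samples. Plasma RNA is a mixture from many tissues: fewer cells of a type, less RNA per cell and less release cannot be told apart.

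As background, the 3p arms of miR-221 and miR-222 carry the same seed, the stretch near the 5′ end that pairs with target messages. In human cells both repress the receptor gene KIT and the cell cycle inhibitor genes CDKN1B (p27) and CDKN1C (p57). In vascular tissue they are known from endothelium, where KIT is a target, and from smooth muscle, where they favour proliferation. Usually 1 arm of a hairpin is loaded into Argonaute and the other is degraded.

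Sequences are shown because the shared seed of the 3p arms is what sets the comparison of partners. They were taken from RefSeq (GRCm38.p6), where 3 of the 4 arms had a mature entry, and capitals mark the seed (bases 2 to 8, counted from the 5′ end).
mmu-miR-221-3p: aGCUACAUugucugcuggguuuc
mmu-miR-222-3p: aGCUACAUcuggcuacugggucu
mmu-miR-221-5p: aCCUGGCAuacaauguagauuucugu
The 3p arms share their first 8 bases, and 11 of their 23 positions are identical without gaps. Of all mature mouse entries, 3 carry the seed GCUACAU, namely both of these and mmu-miR-1928, which was not among the rows analysed here. In the hairpins below, capitals mark the mature arms listed above.
Mir221: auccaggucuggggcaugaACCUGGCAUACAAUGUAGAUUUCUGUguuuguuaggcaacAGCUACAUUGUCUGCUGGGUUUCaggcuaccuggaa
Mir222: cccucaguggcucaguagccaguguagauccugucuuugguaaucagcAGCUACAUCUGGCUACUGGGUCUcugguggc
Both lie on the minus strand of chromosome X, Mir221 at chrX:19146294-19146388 and Mir222 at chrX:19146893-19146971 (GRCm38), 504 bp apart and outside any other annotated gene of GENCODE M21. The nearest is Gm14636, a processed transcript whose near end lies 10009 bp away.

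Library totals ran between 5274676 and 13576482 counts, and single members had between 63 and 6474 counts per library. Values are CPM, counts relative to library sizes adjusted by TMM, a scaling that assumes most miRNAs do not differ. A read covers a whole miRNA, so levels were not divided by length. Adapter ligation favours some ends, which can shift the order of levels between arms. Member counts were whole numbers in every library.

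In CLP plasma the arms of the cluster did not move together: miR-221-3p and miR-222-5p were higher than in sham plasma, while miR-221-5p and miR-222-3p were lower. Thus the arms of each hairpin differed in opposite directions, and so did the same-side arms of the neighbouring hairpins.

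miR-221-3p, the arm of miR-221 with the target-repressing role described above, ran between 232 CPM (CLP 5) and 518 CPM (CLP 1) in CLP libraries with a median of 310, against 148 to 200 CPM with a median of 177 in sham libraries. Every CLP library lay above every sham library. Its mean was 363 ± 108 CPM in CLP (SD, n = 9) and 174 ± 18.9 CPM in sham (n = 6), a log2 fold change of 1.06 ± 0.20 (SE; 2.09-fold).

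Its partner with the same seed, miR-222-3p, ran between 90.6 CPM (CLP 9) and 167 CPM (CLP 5) in CLP libraries with a median of 112, against 216 to 352 CPM with a median of 262 in sham libraries. Here every CLP library lay below every sham library. The mean was 118 ± 25.5 CPM in CLP (n = 9) and 278 ± 58.3 CPM in sham (n = 6), and the log2 fold change was -1.24 ± 0.18.

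miR-221-5p, the opposite arm of the miR-221 hairpin, ran between 59.0 CPM (CLP 1) and 132 CPM (CLP 5) in CLP libraries with a median of 90.2, against 133 to 191 CPM with a median of 158 in sham libraries. The groups did not overlap, although the highest CLP library and the lowest sham library were almost level. The mean was 91.4 ± 20.4 CPM in CLP (n = 9) and 160 ± 19.3 CPM in sham (n = 6), and the log2 fold change was -0.81 ± 0.17.

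miR-222-5p, the scarcest arm, ran between 13.8 CPM (CLP 5) and 54.3 CPM (CLP 2) in CLP libraries with a median of 20.8, against 8.08 to 19.1 CPM with a median of 11.9 in sham libraries. The groups overlapped: 7 of 9 CLP libraries lay above all sham libraries, and CLP 5 and CLP 7 did not. CLP 2, CLP 4 and CLP 8 were high, at 54.3, 44.8 and 52.9 CPM. The mean was 30.5 ± 15.8 CPM in CLP (n = 9) and 12.9 ± 4.50 CPM in sham (n = 6), with a log2 fold change of 1.24 ± 0.34.

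**Figure D1:**
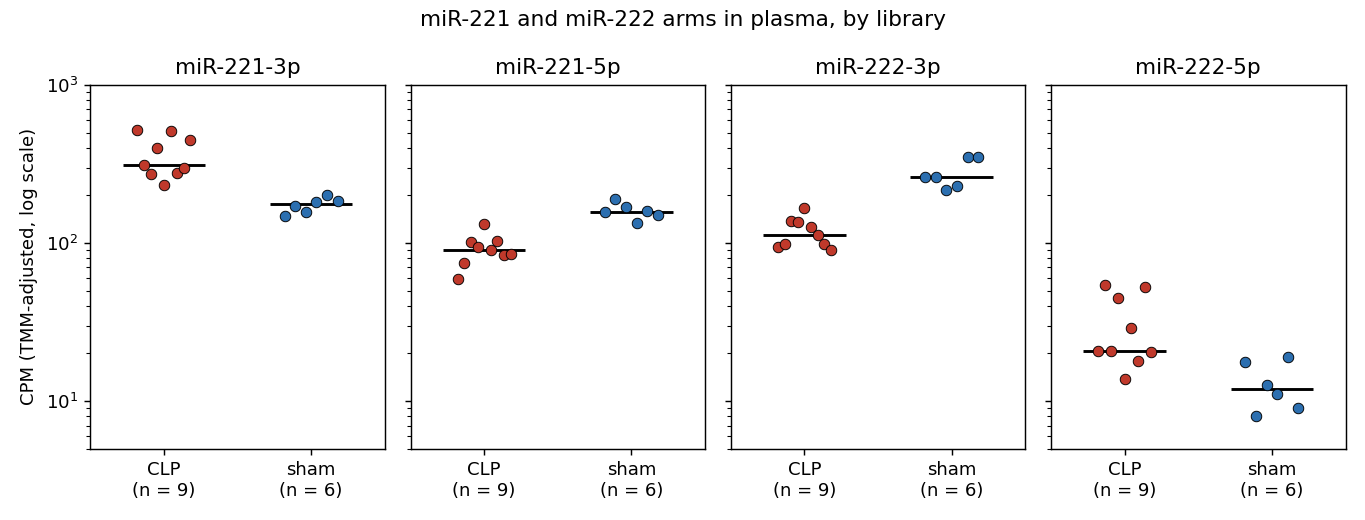
CPM of the 4 arms in each library on a log scale, with a point per library (9 CLP, 6 sham) and a bar at the group median. CLP points lie above all sham points for miR-221-3p, below them for miR-221-5p and miR-222-3p, and overlap them for miR-222-5p.

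Over all 426 tested miRNAs, edgeR's quasi-likelihood test called 108 higher in CLP (25.4%) and 93 lower (21.8%) at a Benjamini-Hochberg adjusted p under 0.05. Of the members, 2 fell among the higher and 2 among the lower. Every CLP library lay above every sham library for 36 of the 426 (8.45%), miR-221-3p among them, and below for 48 (11.3%), miR-221-5p and miR-222-3p among them. These shares are background, and since the contrast chose the members, nothing is read from their own count. The median log2 fold change of all tested miRNAs was 0.11. Under scaling by library size alone it shifted by -0.23, and 90 miRNAs were called higher and 126 lower. The members then had log2 fold changes of 0.85 for miR-221-3p, -1.03 for miR-221-5p, -1.45 for miR-222-3p and 0.98 for miR-222-5p, each in the direction given above.

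CLP 5 was the CLP library nearest to the sham libraries for each of the 4 arms. It also had the highest haemolysis index (log2 of the red cell miR-451a over miR-23a-3p) of the series, at 0.72, against -2.53 to -0.38 in the other CLP libraries and -1.28 to 0.24 in sham libraries. Without CLP 5, the log2 fold changes were 1.05 ± 0.20, -0.97 ± 0.16, -1.39 ± 0.17 and 1.27 ± 0.31 for miR-221-3p, miR-221-5p, miR-222-3p and miR-222-5p. With the haemolysis index as a covariate they were 1.03 ± 0.24, -0.66 ± 0.19, -1.06 ± 0.20 and 0.86 ± 0.37 (SE) in the same order of arms. In that fit miR-222-5p was no longer called, nor was it when replicates 1 to 6 were fitted with their number as a block (1.09 ± 0.43).

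Marker miRNAs of blood cells and muscle were summed in the same libraries. Over all tested miRNAs 25.4% were called higher and 21.8% lower, so single risers or fallers in lists of this length are not read as results on the list. The red cell list of 5 rows summed to between 82881 and 380243 CPM in CLP libraries, against 158615 to 457350 CPM in sham libraries, and 0 of its members rose and 1 fell. Its faller was miR-451a, at -1.28 ± 0.32 (edgeR adjusted p = 0.00313). Most of the red cell sum was the row of miR-486a-5p and miR-486b-5p, which was not called. That row stood at 157244 ± 88057 CPM in CLP (SD, n = 9) and 255786 ± 113399 CPM in sham (n = 6). The platelet list of 5 rows summed to between 25533 and 36148 CPM in CLP libraries, against 46939 to 65364 CPM in sham libraries, without overlap. In that list 1 member rose and 2 fell, with the widest gap in miR-191-5p, at 5450 ± 2419 CPM in CLP (SD, n = 9) and 37342 ± 3797 CPM in sham (n = 6; log2 fold change -2.78 ± 0.28, edgeR adjusted p = 4.37e-07). The riser, miR-24-3p, stood at 19713 ± 3415 CPM in CLP (n = 9) and 11004 ± 2347 CPM in sham (n = 6). The gap in the sum thus follows miR-191-5p and is not shared by all members. Myeloid miRNAs, 4 rows, summed to between 1824 and 4182 CPM in CLP libraries, against 1479 to 2143 CPM in sham libraries. Of these rows 1 rose, miR-223-5p, and 0 fell. Most of the myeloid sum was miR-142a-5p, which was not called, at 2018 ± 589 CPM in CLP (n = 9) and 1473 ± 201 CPM in sham (n = 6). The lymphocyte miRNAs miR-150-5p and miR-342-3p both fell and summed to between 543 and 1523 CPM in CLP libraries, against 1152 to 1819 CPM in sham libraries. Striated muscle miRNAs, 3 rows, summed to between 4975 and 40576 CPM in CLP libraries, against 409 to 6686 CPM in sham libraries, with 2 risers. The largest row was the riser miR-1a-3p, at 18065 ± 10219 CPM in CLP (n = 9) and 1081 ± 1370 CPM in sham (n = 6). No list member was at 0 in all libraries. The part of these miRNAs in the members' levels was not tested. The haemolysis covariate cannot settle it for red cells, since its index is built on miR-451a, itself lower in CLP.

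The order of the 4 arms differed between the groups. In CLP plasma miR-221-3p was the most abundant in 9 of 9 libraries, followed by miR-222-3p, miR-221-5p and miR-222-5p. The ranges of miR-222-3p and miR-221-5p overlapped in CLP, although miR-222-3p was the higher in each of the 9 libraries. In sham plasma miR-222-3p came first in 6 of 6 libraries and miR-222-5p last. miR-221-3p and miR-221-5p could not be ordered there, since the 3p arm was the higher in 3 of 6 libraries and the ranges overlapped. By mean CPM over all libraries the arms took ranks 83 (miR-221-3p), 99 (miR-222-3p), 117 (miR-221-5p) and 189 (miR-222-5p) of the 426 tested miRNAs.

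The spread between replicates of the more abundant arms was below the median over all tested miRNAs, which was not matched for abundance. The SD of log2 CPM was 0.43 in CLP and 0.16 in sham for miR-221-3p, 0.32 and 0.17 for miR-221-5p in the same group order, and 0.30 in both groups for miR-222-3p. miR-222-5p had 0.72 in CLP and 0.49 in sham. The median over all tested miRNAs was 0.59 in CLP and 0.50 in sham, and the lower quartile was 0.42 in CLP and 0.35 in sham. In CLP miR-221-3p thus lay just above the lower quartile. The members were chosen on their fold changes, so their low spread is not read as a result.

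Ratios taken within a library do not depend on how libraries are scaled. The rule that chose the members also names these ratios, so they are given without a test, each as the ratio of counts with 0.5 added. The 3p/5p ratio of miR-221 ran between 1.75 (CLP 5) and 8.78 (CLP 1) in CLP libraries with a median of 4.18, against 0.90 to 1.37 with a median of 1.07 in sham libraries. In sham plasma the miR-221 arms were thus near balance, and in every CLP library the 3p arm was in excess. The log2 ratio differed by 1.84 ± 0.25 (SE) between CLP and sham.

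The 3p/5p ratio of miR-222 went the other way. It ran between 1.80 (CLP 2) and 12.02 (CLP 5) in CLP libraries with a median of 4.44, against 14.9 to 38.1 with a median of 19.5 in sham libraries, again without overlap. The difference of log2 ratios was -2.38 ± 0.37. As a share of the reads of both arms, the 3p arm of miR-221 held 78.7% ± 7.82 in CLP (SD, n = 9) and 52.1% ± 4.59 in sham (n = 6). The 3p arm of miR-222 held 79.5% ± 9.59 in CLP (n = 9) and 95.5% ± 1.46 in sham (n = 6). The mean 3p shares of the hairpins were thus close to each other in CLP plasma and far apart in sham plasma.

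The nearest libraries of the groups show the size of the counting error. In CLP 5, the CLP library nearest to sham, the 3p share of miR-221 was 63.7% of 4128 reads (95% Wilson interval 62.2% to 65.1%), against 57.9% of 1890 reads in sham 4 (55.6% to 60.1%), the nearest sham library. For miR-222 it was 92.3% of 2050 reads in CLP 5 (91.1% to 93.4%), against 93.7% of 2026 reads in sham 1 (92.6% to 94.7%), and these intervals overlap. The other CLP libraries had miR-222 3p shares of at most 86.9%. Reads carried no stated molecular identifiers, so the intervals cover counting error only.

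Between partners, the ratio of miR-221-3p to miR-222-3p ran between 1.39 (CLP 5) and 5.46 (CLP 1) in CLP libraries with a median of 3.02, against 0.528 to 0.799 with a median of 0.613 in sham libraries. The partner with more reads was therefore miR-221-3p in every CLP library and miR-222-3p in every sham library. The log2 ratio differed by 2.26 ± 0.23. For the 5p arms, the ratio of miR-221-5p to miR-222-5p ran between 1.37 (CLP 2) and 9.52 (CLP 5) in CLP libraries with a median of 3.12, against 8.29 to 23.5 with a median of 12.6 in sham libraries. Only CLP 5 lay within the sham range, and the log2 ratio differed by -1.97 ± 0.38.

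**Figure D2:**
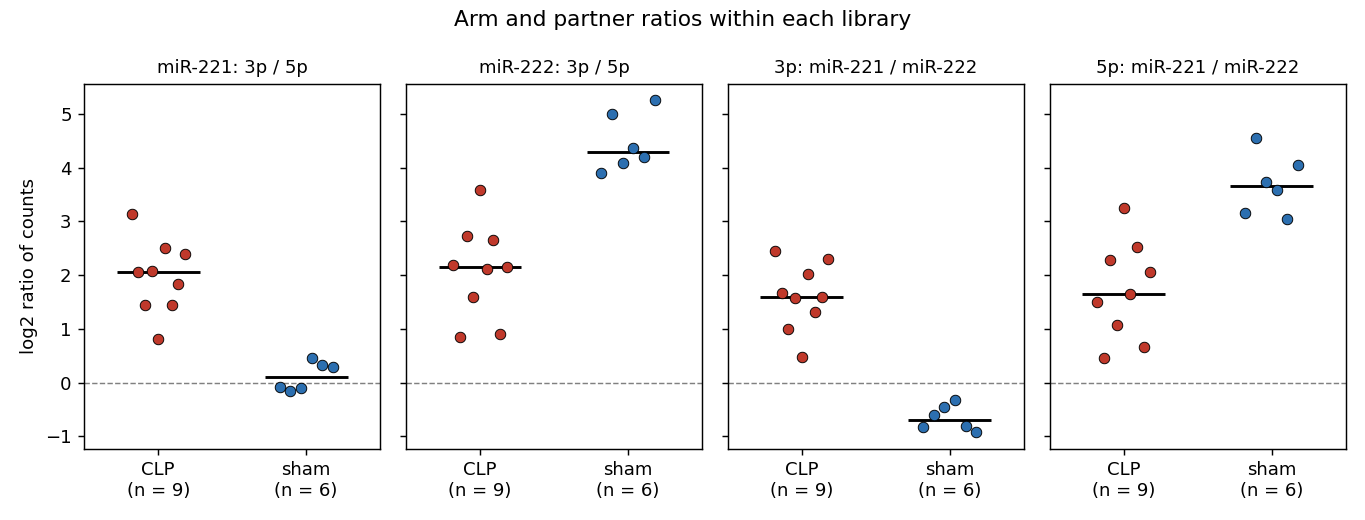
log2 ratios of counts within each library, with a point per library (9 CLP, 6 sham), a bar at the group median and a dashed line at equal counts. The 3p/5p ratio is higher in CLP for miR-221 and lower for miR-222, and the 3p partner ratio lies on opposite sides of the dashed line in the groups.

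Because the 3p arms share a seed, their levels were also summed. The sum ran between 389 and 637 CPM in CLP libraries with a median of 412, against 373 to 551 CPM with a median of 422 in sham libraries, and the ranges overlapped widely. The mean was 481 ± 100 CPM in CLP (SD, n = 9) and 452 ± 72.1 CPM in sham (n = 6). On the log2 scale the groups differed by 0.08 ± 0.13, a difference smaller than its standard error, and the sign depended on the scaling (-0.0030 with DESeq2 size factors, -0.15 with library size alone). What differed was the make-up: miR-221-3p held 74.4% ± 8.30 of the reads of both in CLP (SD, n = 9) and 38.9% ± 3.87 in sham (n = 6).

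**Figure D3:**
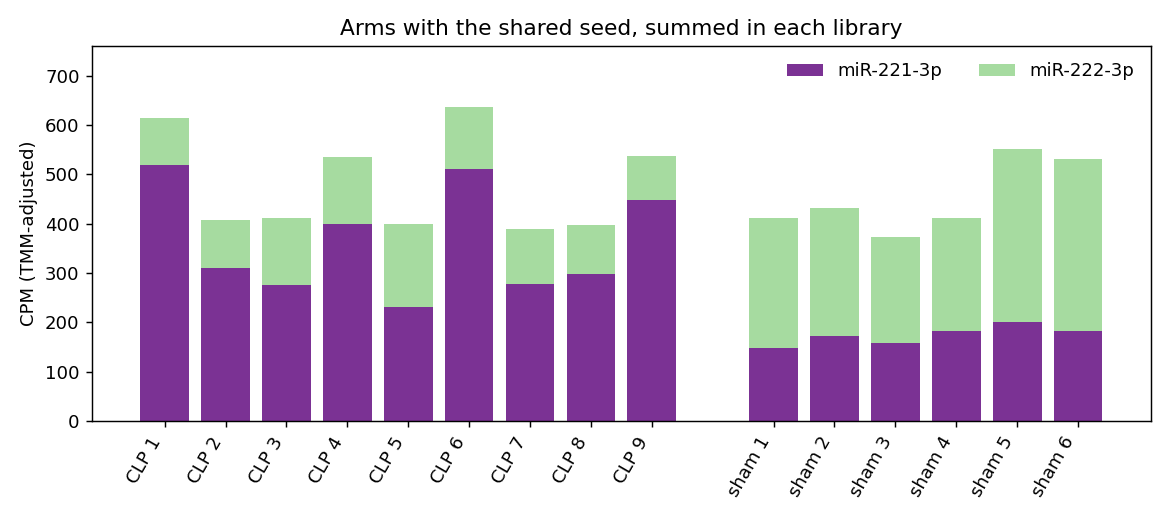
CPM of miR-221-3p and miR-222-3p stacked for each library, 9 CLP on the left and 6 sham on the right. The full bars span 389 to 637 CPM in CLP and 373 to 551 CPM in sham, while the lower, miR-221-3p segment is taller in every CLP library than in any sham library.

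The arms were also compared across libraries within each group. The members were chosen on the CLP against sham contrast, and CLP libraries differed in how far they lay from sham libraries, CLP 5 being the nearest. Relations within CLP are therefore not free of that choice, and its part in them was not tested. Of 12 relations (6 pairs of arms in each group, log2 CPM), 0 passed after Benjamini-Hochberg adjustment, and 2 had an unadjusted exact permutation p under 0.05 by Pearson's r and by Spearman's rho. Both involved miR-221-5p in CLP libraries, and each had the sign given by the directions of its arms in CLP against sham. The first was with miR-222-3p, the other arm that was lower in CLP (r = 0.82, exact two-sided permutation p = 0.00537, adjusted 0.0644; rho = 0.80, p = 0.0138, adjusted 0.166; n = 9). Without the 2 libraries farthest from the median, CLP 1 and CLP 5, r was 0.70. The other was negative, with miR-221-3p of the same hairpin (r = -0.67, exact p = 0.0429, adjusted 0.257; rho = -0.72, p = 0.0369, adjusted 0.221; n = 9), with r = -0.59 without CLP 1 and CLP 6. The first relation depended on the setting. Its exact permutation adjusted p was 0.0328 with library size scaling (r = 0.86) and 0.104 with DESeq2 size factors. Leaving out 1 library gave an adjusted p between 0.0345 (without CLP 7) and 0.671 (without CLP 5, r = 0.68), and without CLP 9 it was 0.0491. The second weakened to r = -0.31 with library size scaling (exact permutation adjusted p = 0.781).

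The partners with the shared seed gave r = -0.46 in CLP (exact permutation p = 0.209, adjusted 0.628; rho = -0.65, p = 0.0666, adjusted 0.266; n = 9) and r = 0.62 in sham (p = 0.194, adjusted 0.628; rho = 0.60, p = 0.242, adjusted 0.580; n = 6). Without the 2 farthest libraries r was -0.55 in CLP and 0.61 in sham. With library size scaling r was -0.13 in CLP and 0.34 in sham, and with DESeq2 size factors it was -0.41 in CLP and 0.25 in sham. Leaving out CLP 5 gave r = -0.18 in CLP, and leaving out sham 5 gave r = 0.37 in sham. The difference between these coefficients was not tested. The other 8 relations had exact permutation p-values of at least 0.108 by either coefficient.

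The miRNAs whose libraries deviated most like each 3p arm were different ones. Deviations of log2 CPM from the group mean were correlated over the 15 libraries with those of 248 miRNAs of at least 10 mean CPM, as a description, with scaling shared by all. Closest to miR-221-3p were miR-223-5p (r = 0.87), from a hairpin known from myeloid cells, miR-340-5p (0.87) and miR-21a-5p (0.80), which inflammatory signals induce. Each rose in CLP by edgeR's quasi-likelihood test, adjusted by Benjamini-Hochberg. Their log2 fold changes were 2.78 ± 0.28 for miR-223-5p (adjusted p = 4.03e-07), 2.29 ± 0.27 for miR-340-5p (adjusted p = 2.52e-06) and 1.28 ± 0.23 for miR-21a-5p (adjusted p = 0.000186).

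Closest to miR-222-3p were miR-139-3p (r = 0.83), miR-93-3p (0.80) and miR-150-3p (0.78), and each of these fell in CLP by the same test. Their log2 fold changes were -1.66 ± 0.28 (adjusted p = 0.000126), -1.04 ± 0.29 (adjusted p = 0.00612) and -1.12 ± 0.28 (adjusted p = 0.00320) in the same order. With the haemolysis covariate miR-93-3p (-0.89) and miR-150-3p (-0.82) were no longer called. Among the 248, miR-221-5p stood at place 225 for likeness to miR-221-3p (r = -0.62) and at place 25 for likeness to miR-222-3p (r = 0.58). The 3p partners had r = -0.24 with each other.

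How common such splits were was described over all hairpins with both arms tested, as 118 pairings of a 3p row with a 5p row. Fold changes of the arms had opposite signs in 41 of these pairings (34.7%), so a difference in sign alone was frequent. Rows of mature forms made from several genes, such as miR-16-5p, enter more than a single pairing. The pairings are therefore not all separate cases. Both arms were called, in opposite directions, in 9 hairpins (7.63%): miR-147, miR-148b, miR-187, miR-191, miR-221, miR-222, miR-335, miR-434 and miR-574. The place of miR-222 in that count hangs on miR-222-5p, which was not called in the fits named above. The 3p arm was the higher one in 6 of these, miR-221 included, and the lower one in 3, miR-222 included.

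The size of the arm difference was above the middle of this distribution for both hairpins. The 3p minus 5p difference of log2 fold changes was 1.87 for miR-221 and -2.48 for miR-222, and the median absolute difference was 0.88 over the 118 and 0.79 over the 53 with both arms at 10 mean CPM or more. Among those 53, miR-222 stood at place 5 and miR-221 at place 8. Both were chosen on their fold changes, so these places are not read as a result. The 3 other hairpins with the largest differences were miR-574 (-5.31), miR-434 (3.76) and miR-191 (3.61). In miR-574 the 3p arm fell by 4.28 ± 0.25 on the log2 scale (edgeR adjusted p = 3.57e-10) while the 5p arm rose by 1.02 ± 0.34 (adjusted p = 0.0196). In miR-191, a hairpin abundant in blood, the 3p arm rose by 0.84 ± 0.22 (adjusted p = 0.00458) and the 5p arm fell, as given above. In miR-434, of the imprinted Dlk1-Dio3 region, the 3p arm rose by 1.72 ± 0.45 (adjusted p = 0.00418) and the 5p arm fell by 2.04 ± 0.25 (adjusted p = 3.36e-06).

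**Figure D4:**
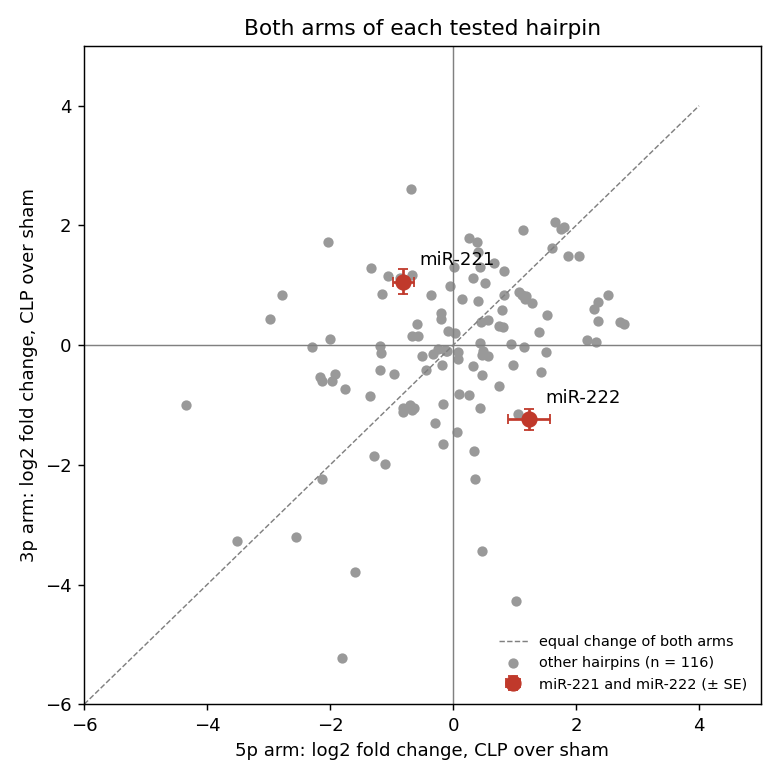
log2 fold change (CLP over sham) of the 3p arm against that of the 5p arm for 118 pairings of arms, with miR-221 and miR-222 in red with standard errors and the dashed line at equal change. The red points lie in opposite corners, miR-221 with the 3p arm higher and the 5p arm lower and miR-222 the reverse.

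Neighbouring hairpins on the same strand, with starts at most 10 kb apart, are often cut from the same primary transcript. Of 169 same-arm pairs of such neighbours, 72 had both miRNAs at 10 mean CPM or more. Their median absolute difference of log2 fold changes was 0.85. The 3p pair of miR-221 and miR-222 differed by 2.30, at place 10, and the 5p pair by 2.04, at place 14. Both members were called in opposite directions in 12 of the 72 pairs (16.7%), these included. Several of the 12 combine the same chromosome 12 neighbours: miR-134-5p, miR-382-5p and miR-409-5p, each with miR-485-5p and with miR-541-5p. The pairs are therefore not all separate cases. Since miR-221 and miR-222 were chosen on their fold changes, their places are not read as a result. The 5 largest differences were those of miR-199a/b-3p and miR-214-3p (4.62), miR-133b-3p and miR-206-3p (-3.55), miR-191-5p and miR-425-5p (-3.35), miR-194-5p and miR-215-5p (2.97), and miR-382-5p and miR-541-5p (2.91), each taken as the first minus the second.

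A shared seed narrows the comparison to 18 of the 72 pairs, with a median absolute difference of 0.81. The difference of miR-221-3p and miR-222-3p, on which the members were chosen, stood at 2.30. Other differences in this set were those of miR-29b-3p with miR-29c-3p (-2.27), miR-29a-3p with miR-29b-3p (2.05) and miR-30c-5p with miR-30e-5p (-1.81). Some mature forms are made from several genes, miR-29b-3p among them, so those pairs share a row. The next pairs were miR-15b-5p with miR-16-5p (1.08), let-7a-5p with let-7d-5p (1.01), miR-363-3p with miR-92a-3p (0.86) and let-7d-5p with let-7f-5p (-0.85). The pairs miR-17-5p with miR-20a-5p (-0.81), let-7a/c-3p with let-7b-3p (0.80), let-7b-5p with let-7c-5p (-0.67), miR-500-3p with miR-501-3p (0.55) and miR-106b-5p with miR-93-5p (-0.53) lay nearer to 0. Closest together were miR-200b-3p with miR-429-3p (-0.42), miR-181a-5p with miR-181b-5p (0.25), let-7f-5p with miR-98-5p (0.17), let-7a-5p with let-7f-5p (0.16) and miR-19a-3p with miR-19b-3p (-0.03). Among 29 pairs of neighbouring hairpins with all 4 arms tested, the arm differences had opposite signs in 12, miR-221 with miR-222 included.

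**Figure D5:**
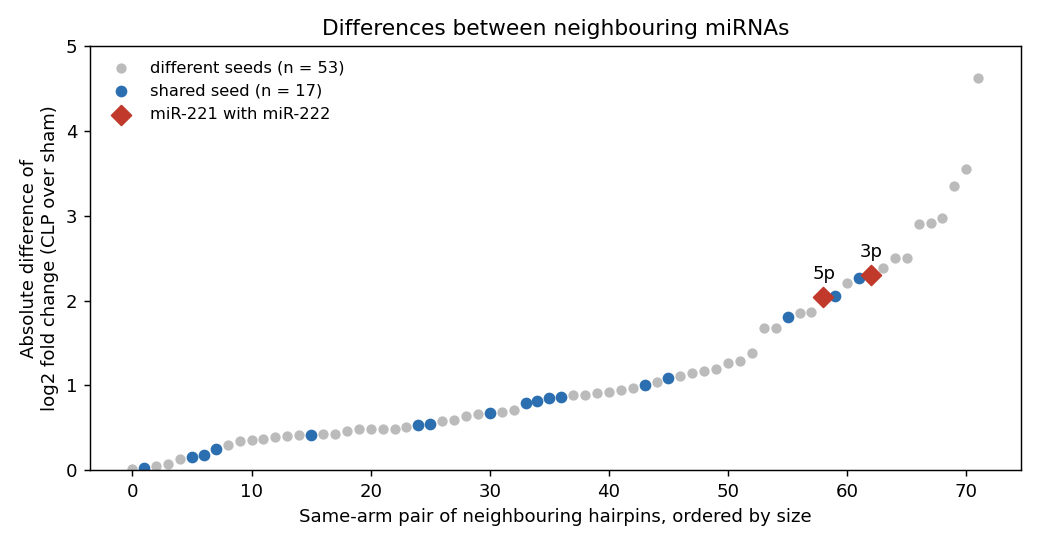
Absolute difference of log2 fold change (CLP over sham) between same-arm miRNAs of neighbouring hairpins, for the 72 pairs with both miRNAs at 10 mean CPM or more, ordered by size. The pairs of miR-221 with miR-222 (diamonds) stand at 2.30 for 3p and 2.04 for 5p, above the median of 0.85, and the other 17 pairs with a shared seed lie at 2.27 or less.

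The next list holds other miRNAs described, mostly in human cells, as acting on KIT, CDKN1B or CDKN1C. It is what remained of a longer list after 6 members were left out, and it was chosen with earlier results known, so its counts are a description of these 8 miRNAs. Of 8 tested, 5 rose and 0 fell by edgeR's quasi-likelihood test, adjusted by Benjamini-Hochberg over all tested miRNAs (25.4% and 21.8% over all tested). At an unadjusted p under 0.05, 1 was lower, and 1 was called lower by DESeq2 and 0 by limma voom. The list's median log2 fold change was 0.62, beside 0.11 over all.

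Of those described for CDKN1B, miR-148a-3p rose by 1.79 ± 0.24 (edgeR adjusted p = 7.48e-06), miR-24-3p by 0.84 ± 0.18 (adjusted p = 0.00111) and miR-181a-5p by 0.40 ± 0.16 (adjusted p = 0.0465), the last of which no longer passed when any 1 library was left out. For CDKN1C, miR-25-3p rose by 1.17 ± 0.27 (adjusted p = 0.00146), and miR-92b-3p stood at -0.72 ± 0.30 (adjusted p = 0.0593). Of those for KIT, miR-193a-3p rose by 1.49 ± 0.36 (adjusted p = 0.00246), while miR-193b-3p (-0.69 ± 0.39, adjusted p = 0.149) and miR-494-3p (0.19 ± 0.40, adjusted p = 0.718) did not pass. All 3 of the KIT miRNAs were scarce, with group means of at most 10.7 CPM.

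The endothelial and vascular wall miRNAs were mixed in direction. Of 13 tested, 4 rose and 1 fell, where 25.4% of all tested miRNAs were higher and 21.8% lower, so the risers are not set apart from that background, and the list's median log2 fold change was -0.07. The risers were miR-10a-5p (1.14 ± 0.21, edgeR adjusted p = 0.000194), known from endothelium, miR-130a-3p (1.99 ± 0.23, adjusted p = 1.95e-06), and both arms of the smooth muscle miR-145a, at 1.61 ± 0.40 for 5p (adjusted p = 0.00268) and 1.62 ± 0.42 for 3p (adjusted p = 0.00354). miR-125b-5p fell by 1.19 ± 0.35 (adjusted p = 0.00812). Both arms of miR-126a, whose host gene Egfl7 is expressed in endothelium, stood at -0.42 ± 0.22 for 3p (adjusted p = 0.129) and -0.45 ± 0.19 for 5p (adjusted p = 0.0639), so in that hairpin the arms had like values.

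Of the rest of that list, miR-100-5p (0.51, adjusted p = 0.0562), miR-27b-3p (0.35, adjusted p = 0.126), miR-143-3p (-0.07, adjusted p = 0.893), miR-143-5p (-0.25, adjusted p = 0.615), miR-92a-3p (-0.30, adjusted p = 0.254) and miR-23b-3p (-0.53, adjusted p = 0.166) did not pass edgeR's test. The number of fallers depended on the setting, between 1 and 5, and both miR-126a arms were called lower when libraries were scaled by size alone (-0.63 for 3p and -0.65 for 5p).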

How the data were processed

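Per the labels' protocols, a Norgen Biotek kit served for small RNA libraries (adapter ligation, PCR, gel excision) from 100 ng of RNA extracted with Trizol LS from 100 µl of plasma. The authors deposited a table of expected counts per mature miRNA, not scaled for depth, whose name gives exceRpt as its source. Per the submitters' processing notes, mm10 was used, while the aligner is not given in the sources used here.

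Expected counts were rounded. Libraries were scaled by TMM, rows were kept by filterByExpr (426), and CLP was compared with sham over all 15 libraries by edgeR 4.0.16's robust quasi-likelihood F test in R 4.3.3, two-sided, with Benjamini-Hochberg adjustment. Standard errors are the log2 fold change over the square root of F. Log2 CPM used a prior count of 2, and ratios had 0.5 added. Correlations used exact permutation of the library pairings, and scipy 1.17.1 gave the ranks and the Wilson intervals. The fit was tested on simulated data. Within groups, chi-square per degree of freedom between libraries was at least 161, so none was a copy.

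Named miRNAs were the 4 arms, the members of both lists, the 3 miRNAs most like each 3p arm, the 3 other hairpins with the largest arm difference, the 5 most different neighbour pairs and all pairs sharing a seed. From the list of miRNAs with shared targets, 6 members were left out and are not reported here as part of it. The members and lists were chosen with earlier results of these data known. The labels do not say that replicate numbers pair mice, so the main fit used no block. As a check, same-numbered CLP and sham libraries did not deviate together, with correlations between -0.15 and -0.03. Alternatives were DESeq2 1.42.0 and its size factors, limma 3.58.1 voom, scaling by library size, other filters, other pseudocounts, a haemolysis covariate, a GC correction (87.6% of tested miRNAs had a sequence), a replicate block, and leaving out libraries.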

Additional observations from a re-analysis of the deposited data

How the results depend on the processing

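The direction of all 4 arms held in each of the 26 alternative fits (25 for miR-222-5p, which has no sequence for the GC correction). Over the fits that left out 1 library, log2 fold changes ran between 0.93 and 1.11 for miR-221-3p, -0.97 and -0.78 for miR-221-5p, -1.39 and -1.16 for miR-222-3p, and 1.05 and 1.38 for miR-222-5p. The GC correction moved miR-221-5p to -1.18. Removing CLP 1 and CLP 5 together left every direction as it was. The 4 log2 ratio differences kept their direction in all 18 alternatives, ratios with pseudocounts of 1 or 5 included. The summed 3p level reversed to -0.0030 with DESeq2 size factors and to -0.15 with library size scaling, and ran between 0.02 and 0.14 without 1 library.

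With a replicate block over replicates 1 to 6, the arms stood at 0.98 (miR-221-3p), -0.90 (miR-221-5p), -1.20 (miR-222-3p) and 1.09 (miR-222-5p). Correlations of deviations gave no sign that numbers pair libraries. The block gave 71 higher calls and 81 lower calls, against 108 and 93 over all libraries. The use of replicates 1 to 6 without the block, chosen after seeing the data, gave 87 higher and 92 lower. The strict filter gave 71 higher and 70 lower, and no filter gave 140 higher and 167 lower. Library size scaling gave 90 higher and 126 lower, and DESeq2 size factors gave 98 higher and 103 lower, so the balance of directions depended on the scaling. Without 1 library the calls numbered 95 to 104 higher and 82 to 110 lower.

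Among miRNAs with shared targets, the higher count of 5 held with voom and without CLP 1 and CLP 5. It was 3 with the strict filter, under which the scarce members were not tested, and 4 in every other fit, including those without 1 library. miR-181a-5p was no longer called in 24 of the 26 fits. The lower count of 0 was 0 to 1 without 1 library, 2 with library size scaling, and 1 with DESeq2, its size factors, no filter, the strict filter, the haemolysis covariate or replicates 1 to 6 alone. The vascular list's lower count of 1 became 5 with library size scaling, 3 with the strict filter, voom or the replicate block, and 2 with DESeq2, its size factors, the haemolysis covariate, the GC correction, replicates 1 to 6 alone or without CLP 1 and CLP 5. Without 1 library it was 1 to 3. miR-92b-3p was called lower in 14 of the 26 fits and miR-126a-5p in 12, and with the replicate block miR-150-3p (-0.85) no longer passed.

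List members that did not pass changed sign in some fits. miR-143-3p stood at 0.41 with voom, 0.13 with the block and -0.34 to 0.58 without 1 library, and miR-143-5p at 0.22 with voom and -0.45 to 0.31 without 1 library, both highest without sham 6. miR-494-3p stood at -0.036 with library size, -0.30 with the haemolysis covariate, -0.11 with the GC correction and -0.058 to 0.39 without 1 library.

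Of the within-group relations, r of miR-221-5p with miR-222-3p in CLP was 0.68 (without CLP 5) to 0.87 without 1 library and 0.86 with library size scaling. Signs changed for miR-221-3p with miR-222-5p in CLP (-0.17 to 0.28 without 1 library) and in sham (-0.80 to 0.43, and 0.33 with library size). In sham they also changed for miR-221-5p with miR-222-3p (-0.55 to 0.12), miR-221-5p with miR-222-5p (-0.47 to 0.43, and 0.20 with library size) and miR-222-3p with miR-222-5p (-0.35 to 0.55). The cause of these shifts was not tested. With 63 to 366 counts per library, miR-222-5p has a larger counting error than the other arms. How much of its spread that error makes up was not tested, and 6 sham libraries limit the relations.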
